A study of Mus musculus with 8 samples.

Results

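Flag immunoprecipitation (Flag-IP) signal over input was described at 10 genes of endoplasmic reticulum (ER) associated degradation, in cells with Flag-tagged HoxB4. They are among 16655 genes with measured windows on a pair of promoter arrays. The 10 genes are Os9, Edem1, Edem2, Syvn1, Sel1l, Derl1, Derl2, Derl3, Vcp and Herpud1. Os9 was chosen by its own reading, because its highest window on these arrays was among the largest of all genes, and the other 9 genes were added for their shared pathway. All values of the highest windows below are therefore descriptions, with no test. The cells were blood progenitors derived from the mouse embryonic stem (ES) cell line B6N-22UTR. After 6 days in embryoid bodies, c-Kit+CD41+ precursors were placed on OP9 stroma, a mouse bone marrow stromal line, and infected with a retrovirus for HoxB4 carrying 3 FLAG tags. The c-Kit+ cells were taken by magnetic sorting at day 12 of that culture, per the series' design text. Flag-IP DNA, labelled with Cy5, was compared with input DNA of the same kind of cells, labelled with Cy3, after both had been amplified with T7 RNA polymerase. The cells on these arrays thus all came from culture infected with the HoxB4 virus, and no Flag-IP from cells with the control virus was analysed here. Whether a high ratio is binding of HoxB4 was not tested.

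The arrays carried different probes, 237195 on promoter array 1 and 237185 on promoter array 2, so each promoter region was measured on 1 array and no gene has a replicate. Edem1, Edem2, Vcp and Herpud1 lay on array 1 and the other 6 genes on array 2. The measure is log2 of Flag-IP over input for a probe, with the median of its array set to 0. A window is the median over 3 neighbouring probes, and the highest window of a gene is the highest one that holds any of its probes. Repeated control spots within an array varied with a median SD of 0.12 on array 1 and 0.13 on array 2 (log2, 22 control probes each). The scanner software gave a median error of 0.23 for the log2 ratio of a probe on both arrays. Both errors leave out the spread between cultures and between immunoprecipitations. Markers of the progenitors could not be checked against expression here, since the probe sets of the 6 expression arrays were not paired with genes.

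The ER folds proteins for the secretory pathway and returns those that fail to fold to the cytosol for destruction by the proteasome. Lectins such as OS9 and mannosidase-like proteins of the EDEM family recognise or trim the glycans of such proteins, and SEL1L carries them to the ubiquitin ligase SYVN1, also called HRD1. Derlins take part in moving substrates across the membrane, the ATPase VCP pulls them out, and HERPUD1 binds the ligase complex. Several of these genes are induced by the unfolded protein response through the ER stress response element, which joins a CCAAT part, bound by NF-Y, to a CCACG part, bound by ATF6 and XBP1. HOXB4 is a homeobox transcription factor that expands blood stem and progenitor cells in culture, and homeodomains commonly contact a TAAT core.

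Promoter sequences from RefSeq (GRCm38.p6, 250 bases before to 50 bases after the gene start) were found for 9 of the 10 genes, with Derl1 missing. Those of Os9, Sel1l and Herpud1 are shown because Flag-IP signal lay at or just inside their starts, that of Syvn1 because it holds the stress element, and that of Derl3 because its highest window was the lowest among the 10 genes. They are written 5′ to 3′ on the strand of the gene. Capitals mark TAAT or ATTA, CCAAT or ATTGG, and CCACG or CGTGG where it stands 9 bases from CCAAT or 1 base from ATTGG.
Os9 promoter, chr10:127121111-127121410, minus strand: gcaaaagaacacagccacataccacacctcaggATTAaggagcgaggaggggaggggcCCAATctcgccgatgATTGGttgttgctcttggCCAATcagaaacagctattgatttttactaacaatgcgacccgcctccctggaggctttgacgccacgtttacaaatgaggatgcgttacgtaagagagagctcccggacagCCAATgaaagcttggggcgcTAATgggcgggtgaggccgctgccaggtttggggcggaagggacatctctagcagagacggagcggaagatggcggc
Syvn1 promoter, chr19:6046326-6046625, plus strand: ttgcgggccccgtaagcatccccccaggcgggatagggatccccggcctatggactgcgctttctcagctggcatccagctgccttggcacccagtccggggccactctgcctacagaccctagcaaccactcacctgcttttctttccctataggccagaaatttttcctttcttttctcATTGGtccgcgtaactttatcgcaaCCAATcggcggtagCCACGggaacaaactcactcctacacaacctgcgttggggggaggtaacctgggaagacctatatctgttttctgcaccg
Sel1l promoter, chr12:91849108-91849407, minus strand: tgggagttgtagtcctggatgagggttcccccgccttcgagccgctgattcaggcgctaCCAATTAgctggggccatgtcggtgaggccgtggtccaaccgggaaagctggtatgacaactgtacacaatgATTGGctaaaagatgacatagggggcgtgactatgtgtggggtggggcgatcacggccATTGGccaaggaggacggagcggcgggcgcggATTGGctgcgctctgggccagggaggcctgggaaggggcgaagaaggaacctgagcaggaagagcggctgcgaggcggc
Derl3 promoter, chr10:75893148-75893447, plus strand: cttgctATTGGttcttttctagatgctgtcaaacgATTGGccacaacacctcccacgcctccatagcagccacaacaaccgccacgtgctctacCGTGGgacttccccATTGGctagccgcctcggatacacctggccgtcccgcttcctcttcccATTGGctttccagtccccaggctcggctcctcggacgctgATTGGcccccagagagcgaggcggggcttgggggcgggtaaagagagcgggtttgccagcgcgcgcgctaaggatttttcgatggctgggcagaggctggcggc
Herpud1 promoter, chr8:94386179-94386478, plus strand: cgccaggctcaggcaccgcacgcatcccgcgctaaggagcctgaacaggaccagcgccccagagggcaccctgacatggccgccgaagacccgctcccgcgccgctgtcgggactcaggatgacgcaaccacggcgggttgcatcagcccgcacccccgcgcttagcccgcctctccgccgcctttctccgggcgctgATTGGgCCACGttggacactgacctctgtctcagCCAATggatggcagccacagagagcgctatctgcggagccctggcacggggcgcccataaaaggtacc

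TAAT, searched on both strands, was present in promoters of 4 of 9 genes, against 58.0% of all 32851 promoters in the table. The shares count single promoters, whereas a gene counted if any of its promoters held the motif. Derl2 has 2 promoters, of which 1 held TAAT and the other CCAAT. In Os9 its first base stood at -217 and at -27, counted from the gene start as 1 with no base 0. In Sel1l the single match, at -188, overlaps a CCAAT, so both share 1 run of capitals. TGATNNAT, a Hox-Pbx type motif, was in 0 of 9 genes, against 8.85% of all promoters. The stress element, CCAAT and CCACG 9 bases apart, was found in Syvn1 and Derl3, against 0.119% of all promoters. Herpud1 held the other form, ATTGG and CCACG 1 base apart, which is known from the human gene and was in 0.0365% of promoters. Vcp had the XBP1 type element TGACGTGG, present in 0.676% of promoters. CCAAT alone was in promoters of 8 of 9 genes, against 37.4% of all promoters. It had 5 matches each in Derl2, Derl3 and Vcp, 4 each in Os9 and Sel1l, 2 each in Syvn1 and Herpud1 and 1 in Edem1. CCAAT alone and the Herpud1 form were searched after the sequences had been seen. GC content ran from 47.3% in Edem2, through 55.7% in Os9, to 76.0% in Edem1, against a median of 52.7% over all promoters, and Edem2 was the 1 gene of 9 below that median. A match or its absence concerns these letters alone, and the array coordinates and this table come from different sources, so no probe was placed on these sequences.

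Flag-IP signal at Os9, the lectin that hands misfolded glycoproteins to the ligase, was centred on the gene start. The probe at -187 bp had a log2 ratio of 3.18 ± 0.37 (± the error of the scanner software, as for the other probes), that at 45 bp 4.65 ± 0.49, that at 219 bp 2.32 ± 0.30 and that at 378 bp 2.66 ± 0.33. Further out the ratio was 1.51 at -327 bp, 1.68 at 496 bp and 1.14 at 601 bp. The rise was thus shared by neighbouring probes and fell off on both sides, with ratios of 0.18, 0.27 and 0.29 at -1340, -1234 and -954 bp. The highest window was 3.18, a 9.08-fold Flag-IP signal over input, and covered chromosome 10 from 126523833 to 126524291 in the coordinates of the files, for which the sources used here name no genome build. The probe at -187 bp lies in what the files call the promoter and the probes at 45 and 219 bp inside the gene, with no exon or intron named. The array design lists Os9 under its older name 4632413K17Rik.

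Both channels were bright at the Os9 peak. At 45 bp the processed Flag-IP signal was 42477 and the input signal 1617, at percentiles 99.9 and 85.1 of the probes on that array. At 219 bp they were 111468 and 21308, so the brightest Flag-IP probe of the gene also had the brightest input. At -187 bp, with signals of 8008 and 841, the input stood at percentile 58.9. The high ratio was therefore not confined to probes of high or of low input. Over the 6 probes within 500 bp of the start the mean log2 ratio was 2.67 ± 1.15 (SD over probes of 1 array), against a median of 0.32 over 16205 genes.

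**Figure D1:**
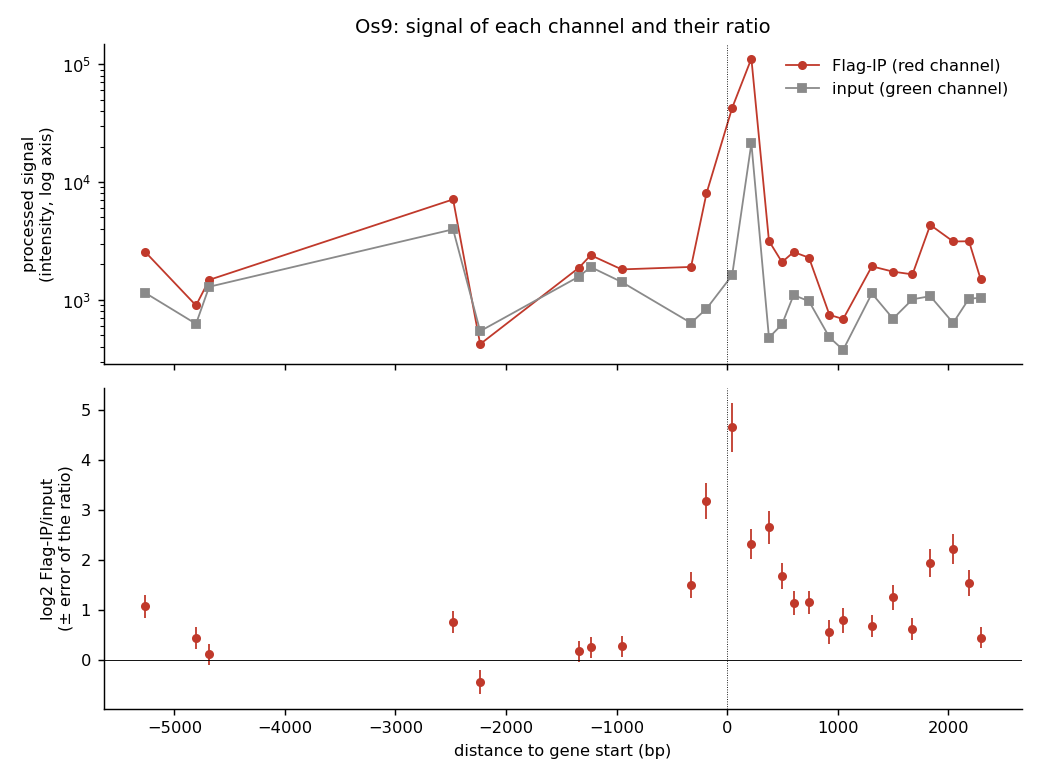
Processed Flag-IP and input signal (intensity, log axis, upper panel) and their log2 ratio with the error of the scanner software (lower panel) against the distance of each of 25 probes to the Os9 start, in bp, on promoter array 2. Flag-IP stands furthest above input at 45 bp, where the ratio is 4.65, and both channels peak at 219 bp.

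A further rise lay inside Os9. The ratio was 1.94 ± 0.28 at 1837 bp, 2.23 ± 0.30 at 2044 bp and 1.55 ± 0.25 at 2187 bp, and 0.45 at the last probe, 2293 bp into the gene. Between 501 and 2500 bp the 11 Os9 probes had a median of 1.14, against 0.04 for all genes. Of its 21 windows 12 were at or above 1, and its lowest window was 0.18. No other of the 10 genes kept all its windows above 0, as their lowest windows ran from -0.41 at Derl3 to -1.70 at Vcp.

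In the order of all genes by highest window Os9 stood at rank 9 of 16655. Next above it came Coq7 (3.34), which acts in ubiquinone synthesis, Astl (3.34), an egg protease gene whose window lay 2814 bp inside, and Akr1e1 (3.39), an aldo-keto reductase gene. Next below came Slc4a1ap and Supt7l (both 3.18), neighbouring genes that share the window, and Tmem97 (3.16), a sterol-related membrane protein gene. These differences are smaller than the 1.18 SD over the 3 probes of the Os9 window, so that spread does not separate these ranks. Among 15871 pairs of a probe and a gene start within 100 bp of it, 2 were at or above the highest Os9 probe, itself included.

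The EDEM genes, whose products act on mannose trimming and on delivery of glycoproteins for degradation, were unlike Os9. Edem1 had the next highest window, 2.27, but far upstream, on chromosome 6 from 108790826 to 108791381. Its probes read 1.63 ± 0.26 at -3562 bp, 2.81 ± 0.34 at -3215 bp and 2.27 ± 0.30 at -3062 bp. At the Edem1 start itself the probes at -17, 94 and 217 bp read 0.35, 0.27 and 0.96, while probes over the first 250 bp of all genes had a median of 0.40. The mean within 500 bp was 0.25 ± 0.46 (SD over 5 probes), at percentile 44.3 of genes, the lowest of the 10. Edem2 had no such upstream peak. Its highest window was 1.35, at percentile 78.4, from probes of 1.35, 0.65 and 1.52 at 49, 201 and 439 bp on chromosome 2 from 155420366 to 155420800. The middle of these had an input signal of 6667, at percentile 98.6 of its array, and 1 further Edem2 probe was left out for an outlier mark.

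Of the ligase pair, Sel1l, the adaptor, had a highest window of 1.85 at percentile 94.7, on chromosome 12 from 92254491 to 92255029. Its probes at -289 and -126 bp read 1.92 ± 0.28 and 1.85 ± 0.27, those at 201, 364 and 498 bp 1.00, 1.21 and 1.18, and those at -415 and 645 bp 0.02 and -0.09. The signal was thus a block around the start with sharp edges, and windows went down to -0.82 upstream of it and to -1.01 inside the gene. Syvn1, the ligase, had its highest window, 1.36 at percentile 79.2, on chromosome 19 from 6046614 to 6046986. A single probe stood out there, 2.59 ± 0.32 at 166 bp, between 1.28 ± 0.24 at -21 bp and 1.36 ± 0.27 at 303 bp. By the mean within 500 bp Syvn1 was the second of the 10 genes, at 1.37 ± 0.77 (SD over 5 probes), with percentile 96.4, and Sel1l the third at 1.20 ± 0.69 (SD over 6 probes), with percentile 93.7. Syvn1 also had probes of 1.15, 1.31 and 1.16 from 1532 to 1760 bp.

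The Derlin genes encode membrane proteins that help substrates cross the ER membrane, and their highest windows were among the lower ones of the 10. By the mean within 500 bp of the start Derl1 and Derl2 stood higher among all genes, at percentiles 89.7 and 80.5. These means were 1.04 ± 0.46 and 0.79 ± 0.28 (SD over 5 probes each), and that of Derl3 was 0.40 ± 0.46 (SD over 4 probes), at percentile 55.8. Derl1 reached 1.22 at percentile 71.7, on chromosome 15 from 57721644 to 57722126, with probes of 1.22, 2.01 and 0.49 at 397, 505 and 828 bp. Its 4 probes from -617 to -202 bp read 0.83, 1.09, 1.12 and 1.50. The next probe, at 283 bp, read 0.27, with input at percentile 98.2 of its array, and none lay between. Further upstream, 7 of the 27 Derl1 windows were at or below -1. Derl2 reached 1.03 at percentile 58.4, on chromosome 11 from 70835270 to 70835740, with probes of 0.81, 1.10 and 1.03 at -260, 43 and 164 bp. The probe at -260 bp is shared with Mis12, a kinetochore gene read in the opposite direction, which has the same highest window and percentile. Derl2 has no other probe before its start, and 33 of its 38 probes lie beyond 500 bp inside the gene.
Derl3 reached 0.90 at percentile 49.1, on chromosome 10 from 75336444 to 75337142, with probes of 1.11, 0.90 and 0.66 at -645, -237 and 7 bp. Derl3 thus stood near the middle of all genes. Its promoter holds the stress element and 5 CCAAT matches, and a relation of motifs to signal was not tested.

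Vcp, the ATPase that extracts ubiquitinated proteins from the membrane, had a rise before its start. The first probe inside the gene lay at 352 bp and read 0.32, so the start itself was not covered and the width of the rise is not known. The probes at -374, -242 and -122 bp read 1.12 ± 0.23, 1.60 ± 0.26 and 0.83 ± 0.22 on chromosome 4 from 43021634 to 43021938, and the window was 1.12 at percentile 65.0. On both sides the ratio was low, with -1.98 and -1.70 at -2356 and -2252 bp and -1.30, -1.44, -0.87 and -1.62 from 975 to 1381 bp. Vcp thus had 2 windows at or above 1 and 8 at or below -1. Its mean within 500 bp was 0.97 ± 0.54 (SD over 4 probes), at percentile 87.3.

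Herpud1, a stress-induced membrane protein gene, had a broad signal. The probes at 511, 627 and 744 bp read 2.05 ± 0.28, 2.06 ± 0.28 and 1.48 ± 0.25 on chromosome 8 from 97276114 to 97276394, and the highest window was 2.05 at percentile 97.4. In a row, 11 windows centred from -907 to 912 bp were at or above 1, and the probes they draw on span 2600 bp. The Herpud1 signal ended abruptly, at -0.85 by 1074 bp. Counted the same way, the run at Os9 held 8 windows over 1939 bp, and those of Syvn1, Derl1, Edem1 and Sel1l 5 to 6 windows over 1120 to 1505 bp.

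**Figure D2:**
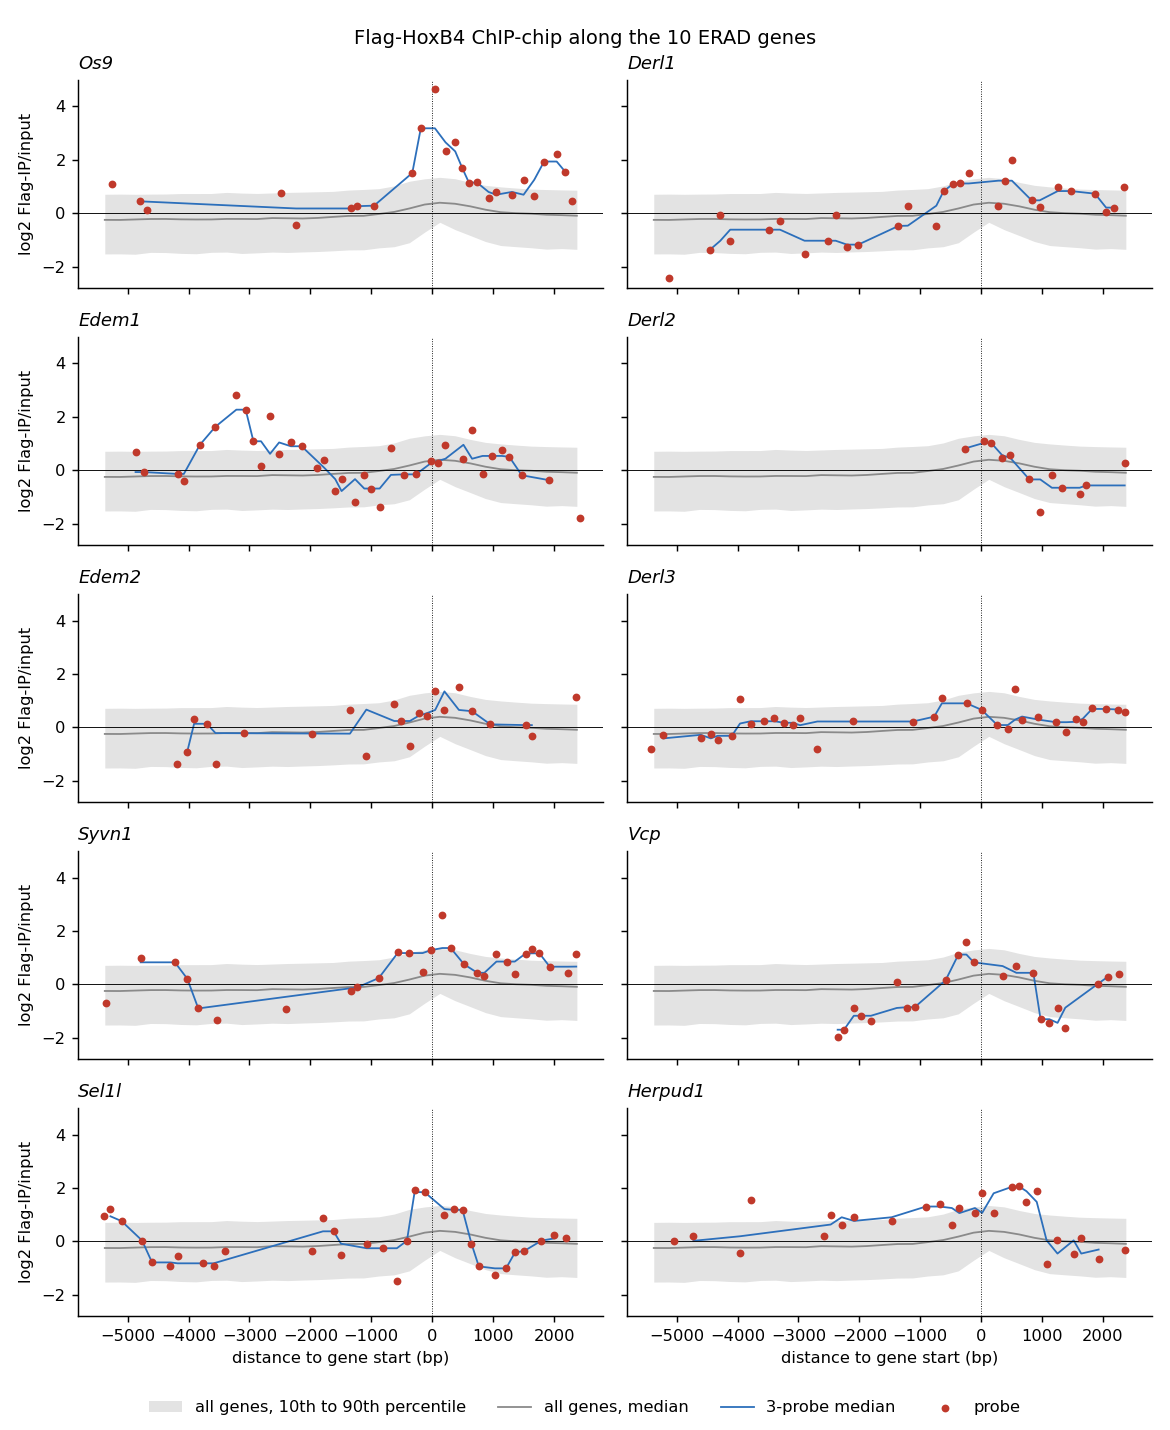
Log2 of Flag-IP over input (points, 1 per probe) and 3-probe medians (blue line, which also joins windows across stretches without probes) against distance to the gene start in bp, for each of the 10 genes, up to 2500 bp inside. The grey line and band are the median and the 10th to 90th percentile of probes of all genes; Os9 rises above the band at the start, Edem1 upstream near -3215 bp and Herpud1 inside near 627 bp.

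At or above a log2 ratio of 1 there were 9 of 10 genes, against 43.4% of all genes, and at or above 2 there were 3 of 10, against 3.16% of all genes. Os9, Edem1 and Herpud1 made up the count at 2, and Derl3 fell short of 1. Os9 was picked for its height and the list was put together with results of these arrays known, so these counts are read as descriptions. The median highest window was 1.35 over the 10 genes and 1.35 over the 9 without Os9, against 0.91 over all genes. The middle probe of the highest window lay within 500 bp of the start for 7 of the 10 genes, against 36.4% of all genes. Neighbours in the order of the 10 genes could not be told apart by the spread within windows: in all 9 pairs the ranges of the 3 probes overlapped, including those of Os9 (2.32 to 4.65) and Edem1 (1.63 to 2.81).

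**Figure D3:**
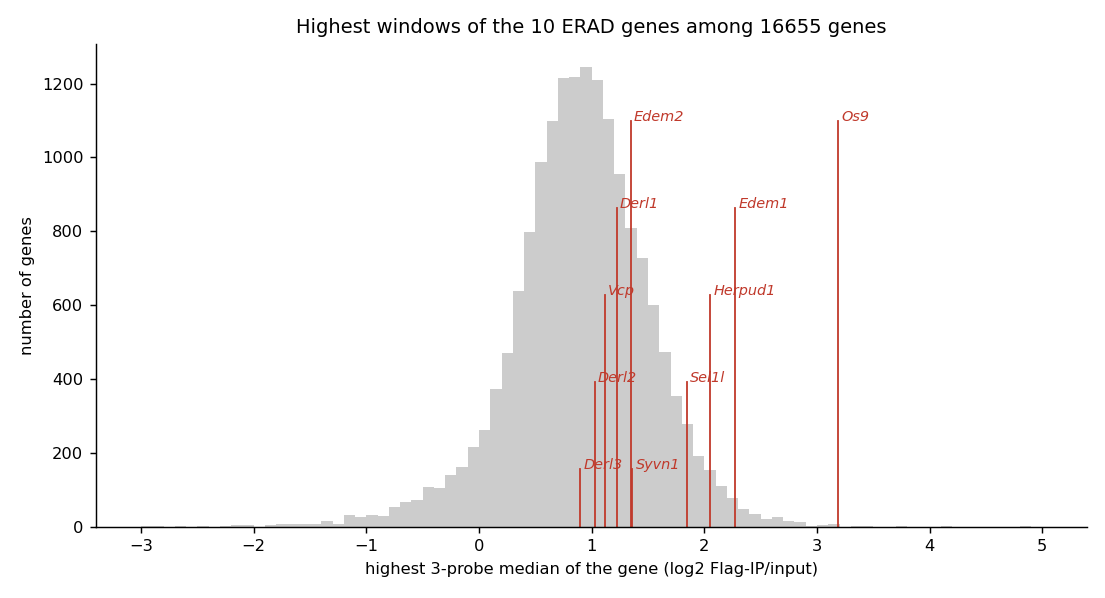
Number of genes by highest 3-probe median (log2 of Flag-IP over input, bins of width 0.1), with the 10 genes marked by red lines whose heights serve the labels. Os9 at 3.18 lies in the far right tail, Edem1 at 2.27, Herpud1 at 2.05 and Sel1l at 1.85 on the right slope, and Derl3 at 0.90 near the peak.

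The brightness of each channel at the highest windows was taken over its array median, in log2 units. Flag-IP ran from 0.68 at Derl2 to 5.50 at Os9. Input ran from -0.32 at Derl2 to 2.10 at Os9, with Syvn1 (-0.12) also darker than the array median. The median over the 10 genes was 2.37 for Flag-IP and 1.00 for input, against 1.22 and 0.27 over the highest windows of all genes. The part of brightness in these ratios was not tested beyond the correction that follows. The median ratio of probes of like brightness was subtracted, and the highest window of each gene was picked anew. These windows were 2.67 at Os9, 1.81 at Edem1, 1.65 at Syvn1, 1.47 at Herpud1 and 1.34 at Sel1l. The other 5 were 0.997 at Derl3, 0.78 at Derl2, 0.76 at Edem2, 0.71 at Derl1 and 0.49 at Vcp. Syvn1 and Derl3 were thus higher than before the correction and the other 8 lower. For Derl3 the higher value came from another window, with probes at -4328, -4094 and -3959 bp. Those at -4328 and -3959 bp were not well above background. Its former probes at -645, -237 and 7 bp read 0.64, 0.35 and 0.95 after the correction. The count at or above 1 was then 5 of 10 genes and that at or above 2 was 1 of 10, while the shares of all genes were 35.3% and 1.17%.

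Os9 stood at percentile 99.8 or above under each of 10 other ways of processing, at ranks from 5 to 32 of all genes. All of these reuse the signals by which Os9 was chosen, and several returned its main value unchanged. They describe the effect of processing and are not independent measurements. Sel1l ranged from 82.6 to 95.9, Herpud1 from 91.8 to 98.1 and Syvn1 from 76.8 to 96.4. The remaining 6 genes fell below the middle of all genes in at least 1 setting. Edem1 was there when probes near the start were averaged (44.3, up to 99.8 otherwise) and Vcp when the brightness trend was removed (21.7, up to 88.5). Derl1 ranged from 38.7 to 89.7, Derl2 from 36.0 to 80.5, Edem2 from 43.5 to 84.1 and Derl3 from 44.9 to 64.3. Of 11 settings with the main one, Edem1, Vcp and Derl1 were at or above the median of all genes in 10. Derl2 and Edem2 were so in 9 and Derl3 in 4.

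**Figure D4:**
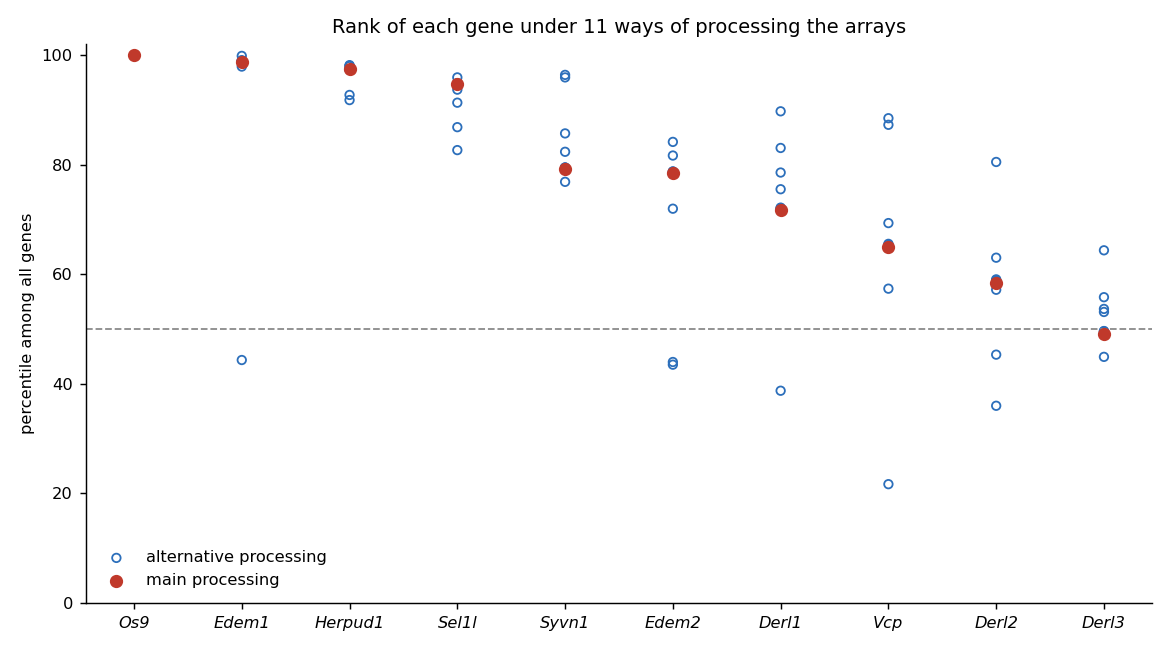
Percentile of each of the 10 genes among all genes (vertical axis) by highest window, with the main processing as filled and 10 alternatives as open circles, 1 of which ranks genes by the mean within 500 bp of the start. Os9 stays at or above 99.8 and Herpud1 and Sel1l above 82, whereas Vcp spans 21.7 to 88.5.

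Genes of the wider pathway were described in 6 lists with 99 of 106 genes measured. Among 7 genes of glycan recognition and trimming the median was 1.16, with 5 at or above 1 and 0 at or above 2. Man1b1, an ER mannosidase gene, was highest (1.87 at 64 bp) and Ngly1, the cytosolic glycanase gene, lowest (0.56). Erlec1, the relative of Os9 that also binds glycans for the ligase, stood at 1.16, with 0.85 as its mean within 500 bp. Among 18 other ER ubiquitin ligases and partners the median was 1.17, from Ube4a (1.96), a ubiquitin chain elongation factor gene, to Rnf185 (0.42), a ligase gene, with 12 at or above 1 and 0 at or above 2. The 16 Vcp cofactors had a median of 1.17, with 11 at or above 1 and 0 at or above 2. They ran from Ubxn6 (1.61 at -4236 bp, mean 0.31 within 500 bp) to Nsfl1c (0.50 at -658 bp), which encodes the cofactor p47. By the mean within 500 bp Nsfl1c was instead the highest of the 16 genes, at 1.38.

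Among 23 membrane and lumen factors the median was 0.98, near that of all genes, with 11 at or above 1 and 1 at or above 2. That gene was Hm13, which encodes signal peptide peptidase, with 2.79 at 2235 bp and a mean of 0.62 within 500 bp, and the lowest was Dnajb12 (0.51), a membrane co-chaperone gene. Of 16 ER chaperone and folding genes 11 were at or above 1, with a median of 1.20. Calr, the lectin chaperone calreticulin, was the 1 gene at or above 2 (2.17 at -391 bp, mean 2.02 within 500 bp), and Fkbp2, a prolyl isomerase gene, was lowest (0.78). In 13 of these 16 genes (81.2%) the top window was within 500 bp of the start, while the shares of the other 5 lists ran from 42.1% to 56.5% and that of all genes was 36.4%. The 19 sensors and factors of the unfolded protein response had a median of 1.16, with 13 at or above 1. Ppp1r15a, which encodes the stress phosphatase subunit GADD34, was the 1 gene at or above 2 (2.10 at 1216 bp), and Dnajc3, a gene for a co-chaperone that inhibits the PERK kinase, was lowest (0.68). Together 63 of 99 genes (63.6%) were at or above 1, against 43.4% of all genes, and 3 of 99 (3.03%) at or above 2, against 3.16%. The share at 1 was thus above that of all genes and the share at 2 close to it, and the medians of the 6 lists ran from 0.98 to 1.20.

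**Figure D5:**
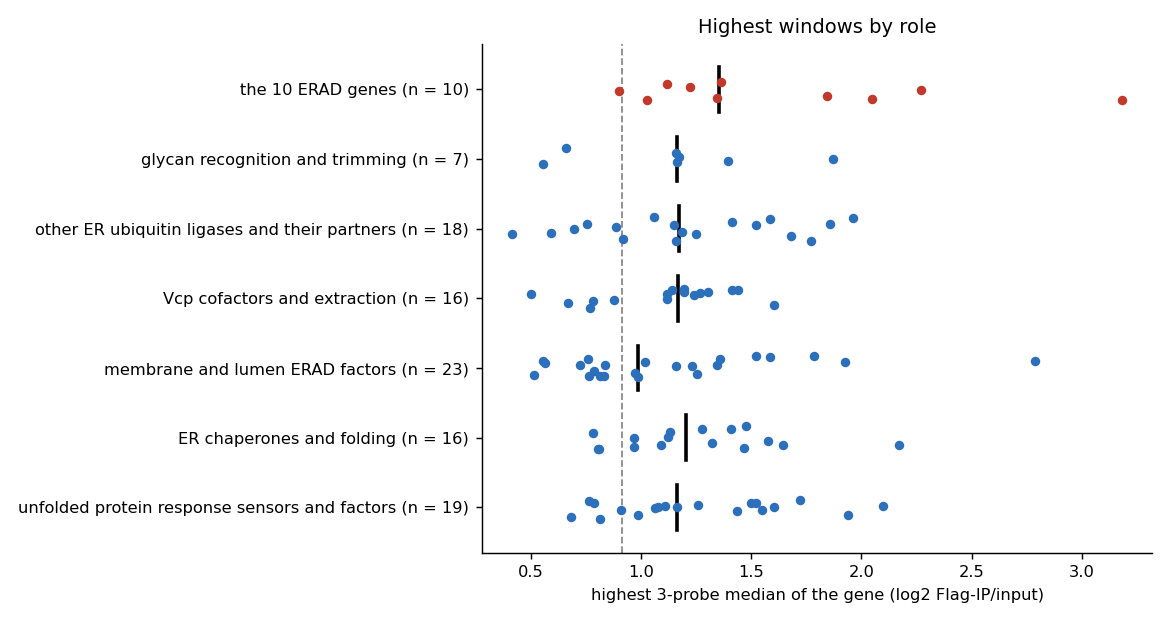
Highest 3-probe median (log2 of Flag-IP over input) of each gene, as points spread vertically for legibility, for the 10 genes and 6 further lists, with black bars at list medians and a dashed line at the all-gene median of 0.91. The median is 1.35 for the 10 genes and 0.98 to 1.20 for the lists, and single genes such as Hm13 at 2.79 stand apart from theirs.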

How the data were processed

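The members and lists were chosen with earlier results of these data known. Red (Flag-IP) and green (input) intensities were deposited as processed signals, made with Agilent Feature Extraction (version 10.1.1.1) by subtraction of background, spatial detrending and scaling of the dyes, per the file headers. The deposited LogRatio column and value tables are on the log10 scale and were used as alternatives, after conversion to log2. The number of arrays, 1 per promoter, limits the precision.

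Log2 ratios (Flag-IP over input) were taken from the deposited intensities (Python 3.11.15, pandas 2.3.3) and centred on each array's median (0.06 and 0.07 before centring). Control spots were left out, as were probes with outlier marks (19 and 38). On either array 95.3% of probes were well above background in both channels, with 0 saturated. Medians over 3 neighbouring probes with starts at most 1000 bp apart gave 425939 windows. Windowing was tested on simulated data. Genes were renamed through RefSeq accessions (16339 of 16908 symbols matched). Normexp used limma 3.58.1 in R 4.3.3. Named were all members, each list's highest and lowest gene and any at or above 2, the 3 genes next to Os9 on either side in the ranking, and genes sharing probes; Erlec1 was named besides as a relative of Os9. No test was made, as there is no replicate.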

Additional observations from a re-analysis of the deposited data

How the results depend on the processing

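Over 10 alternatives the highest window of Os9 ran from 2.66 to 3.25 and moved by less than the SD of its 3 probes, and the median over the 10 genes stayed within the median such SD. The counts of genes at or above 1 and at or above 2 were 9 and 3 in the main processing and in 7 alternatives (43.4% and 3.16% of all genes in the main processing). They were 5 and 1 with the brightness trend removed (35.3% and 1.17% of all genes), 5 and 1 by the mean within 500 bp of the start (11.5% and 0.389%) and 6 and 2 with windows of 5 probes (29.4% and 1.18%). With normexp, an alternative background correction with an offset of 50, Edem1 (3.05) came above Os9 (2.98), which was at rank 32. Of 130 values recomputed, 109 moved by less than their spread or count limit and 21 by more. The spread of a window is the SD of 3 probes at different positions, so it was wide at Os9 (1.18) and small at Derl2 (0.15). A move within it is thus a loose limit at Os9, and the fall from 9 to 6 genes also counted as within the limit. The deposited LogRatio column and value tables gave the main values, as they come from the same signals. The member values were also unchanged with probes well above background only, with a largest gap of 500 bp and with probes naming no other gene. All these unchanged values are among the 109. No paired analysis was possible because the result comes from no test and each promoter lies on 1 array. No array could be left out for the same reason, and the spread between cultures is unknown.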
